A study of Mus musculus with 8 samples.

Results

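St8sia1 encodes GD3 synthase, and the 9 genes described here are St8sia1 and 8 other glycosyltransferase genes of ganglioside synthesis, St8sia5, St3gal5, St3gal2, B4galnt1, B3galt4, B4galt5, B4galt6 and Ugcg. They are 9 genes of a table of 27052 RefSeq records, and 6 of them carried enough reads to be tested. The genes were chosen by their place in the pathway around St8sia1, and St8sia1 itself was chosen from its difference between the genotypes in these same libraries, so that difference is given as a description without a test. For each symbol the record with the highest mean count was used.

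RNA-seq was done on 8 mouse iPSC clones, 4 of them TKO (35, 37, 47 and 48) and 4 of them Ctrl (33, 34, 41 and 43). TKO clones came from MEFs without functional Miwi, Mili and Miwi2, the 3 mouse Piwi genes. In the alleles used, exons of Mili were deleted, the Miwi reading frame was replaced by GFP and Miwi2 carried stop codons. Ctrl clones came from MEFs of littermates, called triple heterozygous in the methods of the study and wild type or heterozygous in its legends. All MEFs carried an Oct4-GFP reporter, were of mixed C57BL/6-s129 background, and all clones were made with retroviral OCT4, SOX2, KLF4 and c-MYC, picked onto inactivated MEF feeders, grown with LIF and, by the labels, below passage 10. Each library is 1 clone, and the labels do not say which embryo a clone came from, so the spread between clones may include both clone and embryo.

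Gangliosides are glycosphingolipids that carry sialic acid and sit mainly in the outer leaf of the plasma membrane. Ugcg puts glucose on ceramide, B4galt5 and B4galt6 add galactose to make lactosylceramide, and St3gal5 adds the first sialic acid to make GM3. St8sia1 adds a further sialic acid to GM3 and so makes GD3, the entry to the b-series gangliosides, while B4galnt1, B3galt4, St3gal2 and St8sia5 extend these chains. GD3 is known as a surface lipid of neural stem cells.

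Total counts ran between 24593995 and 52457455 in TKO libraries and between 8983203 and 24688324 in Ctrl libraries, so Ctrl 33 was the least deeply sequenced. Values below are normalized counts, read counts divided by a size factor that ran between 0.369 (Ctrl 33) and 2.07 (TKO 37). Of 15 pluripotency markers 14 passed the filter, and the exception, Esrrb, has 2 RefSeq records, a class of genes whose low counts are not read as levels here. Their summed level was 177416 to 201087 in TKO clones and 148980 to 203522 in Ctrl clones. The list includes Pou5f1, Sox2 and Klf4, whose counts may include transcript of the retroviral factors. The clones also differed by number. The summed level of 4 Y-linked genes was 312.5 to 543.1 normalized counts in the 4 clones numbered in the forties and 10.8 to 17.3 in the 4 clones numbered in the thirties, in both genotypes. What the clone numbers mean is not given by the labels, so a difference between forties and thirties cannot be told apart from the presence of Y-linked transcripts.

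St8sia1 was higher in every TKO clone than in every Ctrl clone. Its record, NM_011374, is 8995 bases long and belongs to a gene on the minus strand of chromosome 6, chr6:142770065-142912972 in mm9. The raw reads were 1669, 1973, 1244 and 1317 in TKO 35, 37, 47 and 48, against 44, 122, 210 and 310 in Ctrl 33, 34, 41 and 43. After scaling these were 944, 952, 1246 and 1126 normalized counts in TKO clones and 119, 176, 218 and 316 in Ctrl clones. The lowest TKO clone thus lay above the highest Ctrl clone. The genotypes did not overlap in 8.33% of all tested records, in either direction. The means were 1067 ± 146 normalized counts in TKO clones and 207 ± 83.0 in Ctrl clones (SD, n = 4 each), and the fitted log2 fold change was 2.34 with a standard error of 0.26, or 5.07-fold. The log2 fold change was 2.15 among the forties clones and 2.65 among the thirties clones. Over all clones but 1, it was between 2.17 and 2.62. These fits reuse the clones from which St8sia1 was chosen, so they describe the difference and do not test it. In such bulk libraries, more cells with the transcript and more transcript per cell cannot be told apart.

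**Figure D1:**
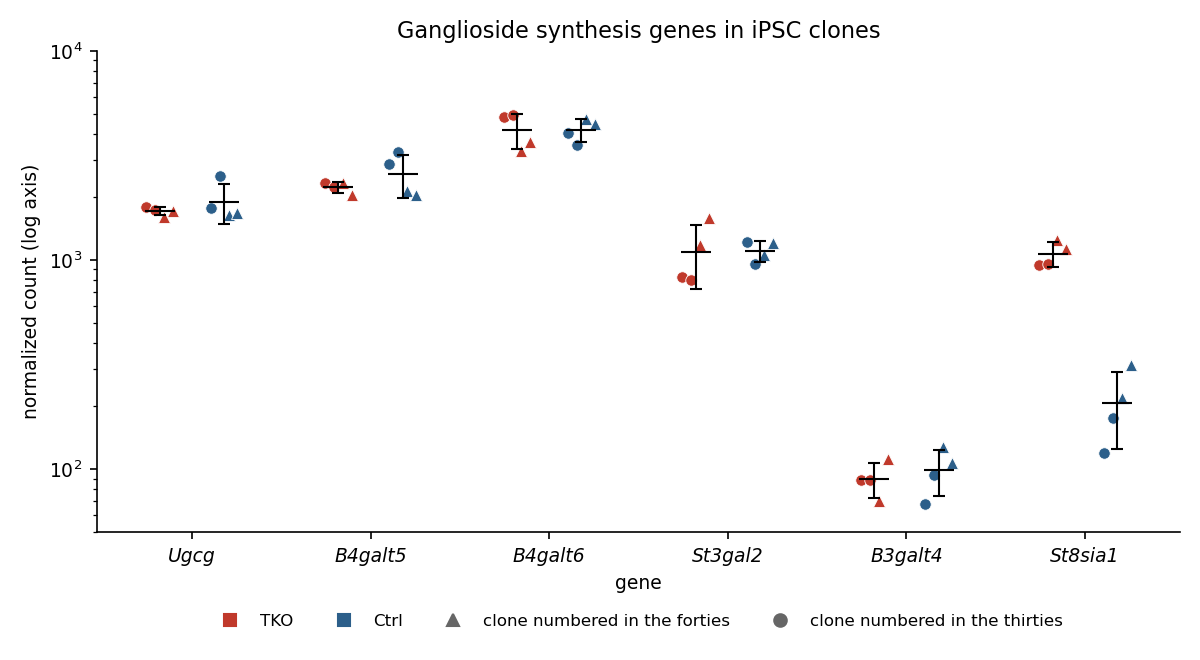
Normalized counts (log axis) of the 6 members that passed the filter, with 1 point per clone, TKO in red to the left of Ctrl in blue, triangles for forties and circles for thirties clones, and black bars for the mean and SD (n = 4). St8sia1, chosen for its genotype difference, is the member whose genotypes do not overlap. It is at 944 to 1246 in TKO clones and 119 to 316 in Ctrl clones.

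The sequence just upstream of St8sia1 is shown beside that of Ugcg, the first enzyme of the pathway, because St8sia1 separated the genotypes and Ugcg did not, and their windows differ in CG dinucleotides. Both are the 250 bases before the RefSeq start in GRCm38.p6, 5′ to 3′ on the strand of the gene, chr6:142964453-142964702 on the minus strand for St8sia1 and chr4:59189300-59189549 on the plus strand for Ugcg, and CG dinucleotides are in capitals.
St8sia1: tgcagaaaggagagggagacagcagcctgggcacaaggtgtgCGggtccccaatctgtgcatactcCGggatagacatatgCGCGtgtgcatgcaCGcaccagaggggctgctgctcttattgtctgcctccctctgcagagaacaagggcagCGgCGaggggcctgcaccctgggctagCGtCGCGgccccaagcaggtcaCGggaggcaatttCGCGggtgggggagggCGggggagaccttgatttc
Ugcg: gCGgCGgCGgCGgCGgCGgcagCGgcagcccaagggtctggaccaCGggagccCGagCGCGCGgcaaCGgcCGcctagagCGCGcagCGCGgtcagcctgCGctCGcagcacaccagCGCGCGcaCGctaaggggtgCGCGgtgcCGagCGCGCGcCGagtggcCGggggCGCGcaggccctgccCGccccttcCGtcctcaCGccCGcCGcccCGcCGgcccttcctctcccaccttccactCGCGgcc
The St8sia1 window holds 14 CG dinucleotides and the Ugcg window 43, where the median of 32851 RefSeq windows of the same length is 6. As many as 14 were found in 29.4% of all windows and as many as 43 in 0.712%. Windows were found for 5 of the 9 members, and those of St3gal5, B3galt4 and B4galt5 hold 25, 14 and 21. B3galt4, with as many as St8sia1, had a log2 fold change of -0.15 in TKO against Ctrl. Read on both strands, the St8sia1 window has the letters CCAAT, present in 33.8% of all windows, and GGGCGG, present in 32.7%, but not TATAAA, present in 12.4%. The Ugcg window has GGGCGG alone of these. Such matches describe the letters and were not tested as binding sites. Whether CG counts go with the genotype differences was not tested.

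The enzymes that build the precursor of GD3 were compared next. None of the 5 other members with enough reads was called in TKO against Ctrl by edgeR's quasi-likelihood test at an adjusted p of 0.05, where 0.24% of all 16235 tested records were called. None of these members passed at an unadjusted p of 0.05 either, and DESeq2 called 0. Their median log2 fold change was -0.15, and that of all tested records -0.01. Since 84.1% of all tested records changed by less than 1.5-fold, small changes of this kind were the rule in the table.

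Ugcg, the glucosylceramide synthase, had 1783, 1736, 1598 and 1722 normalized counts in TKO 35, 37, 47 and 48 and 1763, 2513, 1630 and 1678 in Ctrl 33, 34, 41 and 43. The genotypes overlapped, and Ctrl 34 stood above the other 7 clones. The log2 fold change was -0.15 (95% interval -0.47 to 0.17, edgeR adjusted p = 0.636).

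B4galt5, the main lactosylceramide synthase in many mouse tissues, had 2319, 2238, 2331 and 2035 normalized counts in TKO clones and 2860, 3297, 2126 and 2051 in Ctrl clones. Both high values belong to the thirties Ctrl clones, and the forties Ctrl clones lay among the TKO clones. The log2 fold change was -0.21 (95% interval -0.55 to 0.13, edgeR adjusted p = 0.535).

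B4galt6, the other lactosylceramide synthase, known best from brain, had 4837, 4903, 3323 and 3669 normalized counts in TKO clones and 4033, 3555, 4736 and 4448 in Ctrl clones. Its means were almost equal, 4183 ± 806 in TKO clones and 4193 ± 514 in Ctrl clones (SD, n = 4 each), with an edgeR adjusted p of 0.994 and a 95% interval of -0.33 to 0.33 on the log2 scale. The clones within each series were arranged differently. Among the forties clones B4galt6 had a log2 fold change of -0.39, both TKO clones being below both Ctrl clones, and among the thirties clones it had 0.36, both TKO clones being above both Ctrl clones. The difference between these changes, forties minus thirties, was -0.75 with a standard error of 0.14 (edgeR adjusted p = 0.0450), and 1.3% of all tested records passed this test. The adjusted p of this difference ran between 0.000787 and 0.242 over 14 alternatives, and the call was lost without any 1 of the 4 TKO clones, without Ctrl 41, without Ctrl 43, and with libraries thinned to the smallest total.

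Fibroblast markers also differed between the genotypes in opposite directions in the 2 series, against the direction of B4galt6, and their part in the B4galt6 result was not tested. The summed level of the 14 markers was 25382, 23418, 48954 and 39454 normalized counts in TKO 35, 37, 47 and 48, and 68857, 43391, 30861 and 32371 in Ctrl 33, 34, 41 and 43. Of these markers 7 of 14 passed the test of a difference in change between the series, where 1.3% of all tested records passed. In TKO against Ctrl 0 of 14 were called, where 0.24% of all tested records were called. No marker of the list was at 0 in all libraries. The genotype with more fibroblast marker counts within a series thus had less B4galt6. St8sia1 was higher in TKO clones of both series, and the part of these markers in its difference was not tested. Clones were picked onto MEF feeders, and the sums do not tell feeder transcripts from those of the clones. In the thirties and forties clones, log2 fold changes were -0.44 and 0.06 for B4galt5 and -0.41 and 0.29 for St3gal2. They were -0.29 and 0.005 for Ugcg and 0.11 and -0.35 for B3galt4.

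The downstream enzymes measured well were St3gal2 and B3galt4. St3gal2, which adds sialic acid to the terminal galactose of GM1 and GD1b, had 826, 798, 1179 and 1580 normalized counts in TKO clones and 1219, 952, 1059 and 1201 in Ctrl clones. The thirties TKO clones were the lowest and TKO 48 the highest of all, and the log2 fold change was -0.02 (95% interval -0.49 to 0.46, edgeR adjusted p = 0.981). B3galt4, which adds the galactose that makes GM1 and GD1b, had 88.8, 88.8, 70.1 and 112 normalized counts in TKO clones and 67.7, 93.6, 127 and 107 in Ctrl clones. These overlapped fully, with a log2 fold change of -0.15 (95% interval -0.69 to 0.40, edgeR adjusted p = 0.794).

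**Figure D2:**
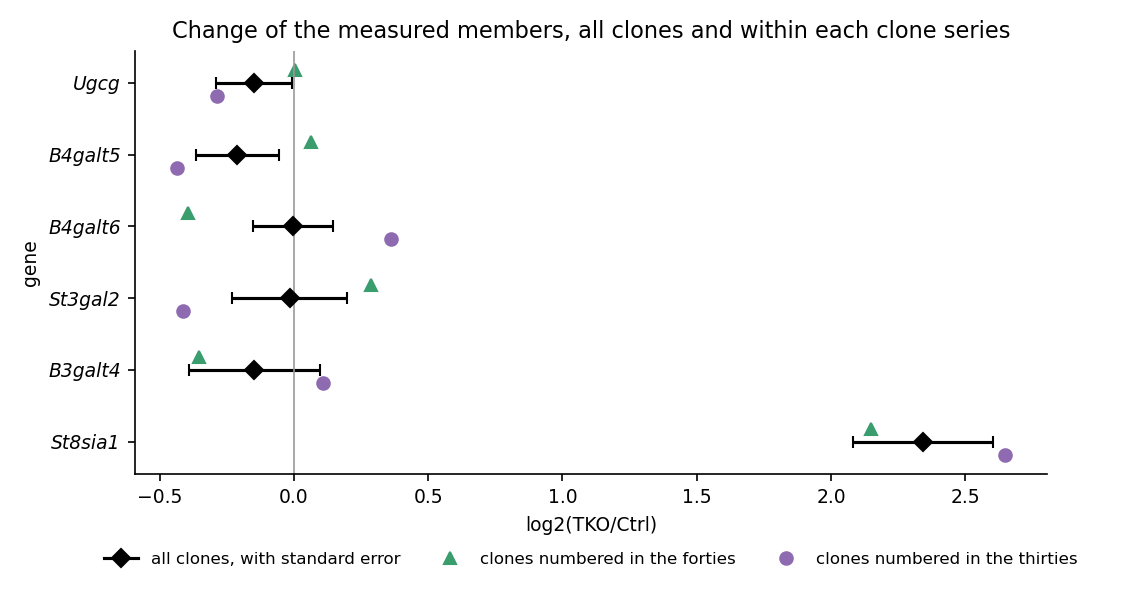
The log2 ratio of TKO to Ctrl (horizontal axis) for the 6 members that passed the filter, with diamonds and standard errors for all clones, triangles for the forties and circles for the thirties clones. St8sia1, chosen for this difference, lies at 2.34 and the other 5 members between -0.21 and -0.00. B4galt6 lies at -0.39 in the forties and 0.36 in the thirties.

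With genotype and clone series fitted together, 5.7% of all tested records were called in TKO against Ctrl, and the 5 other members had edgeR adjusted p-values of 0.337 (B4galt5), 0.490 (Ugcg), 0.747 (B3galt4), 0.859 (St3gal2) and 0.959 (B4galt6). The genotypes did not overlap in 8.33% of all tested records, in either direction, and in none of these 5 members.

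St3gal5, B4galnt1 and St8sia5 could not be judged in this way. St3gal5, the GM3 synthase that supplies the substrate of St8sia1, had 13, 18, 3 and 4 raw reads in TKO clones and 2, 5, 3 and 1 in Ctrl clones on NM_001035228, and its other record was at 0 in all libraries. B4galnt1, which makes GM2 and GD2, had 15, 5, 3 and 5 raw reads in TKO clones and 2, 0, 0 and 3 in Ctrl clones on NM_008080, and at most 8 reads in any library on its other record. St8sia5, which adds sialic acid to the longer chains, had 0, 2, 2 and 2 raw reads in TKO clones and 0 in all 4 Ctrl clones on NM_013666, and 0 on its other record. Exact two-sided permutation tests over the 70 arrangements of the clones gave p = 0.457 for St3gal5, 0.257 for B4galnt1 and 0.143 for St8sia5, where the smallest p possible is 0.0286. With so few reads and libraries of unequal depth, these p-values cannot tell a change from no change.

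These 3 are also the members with 2 RefSeq records each, and low counts were common among such genes in this table. Among symbols with coding (NM) records only, the 16849 with 1 record had a median mean count of 161 reads, the 2051 with 2 records 18.1 reads, and the 922 with 3 or more 10.5 reads. Over 1000 reads were reached by 28.6% of the symbols with 1 record and by 4.24% of those with 2. The handling of reads shared by more than 1 record is not given in the sources used here, and its part in these low counts was not tested. The counts of St3gal5, B4galnt1 and St8sia5 are therefore not read as levels of expression, and no fold change is given for them.

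**Figure D3:**
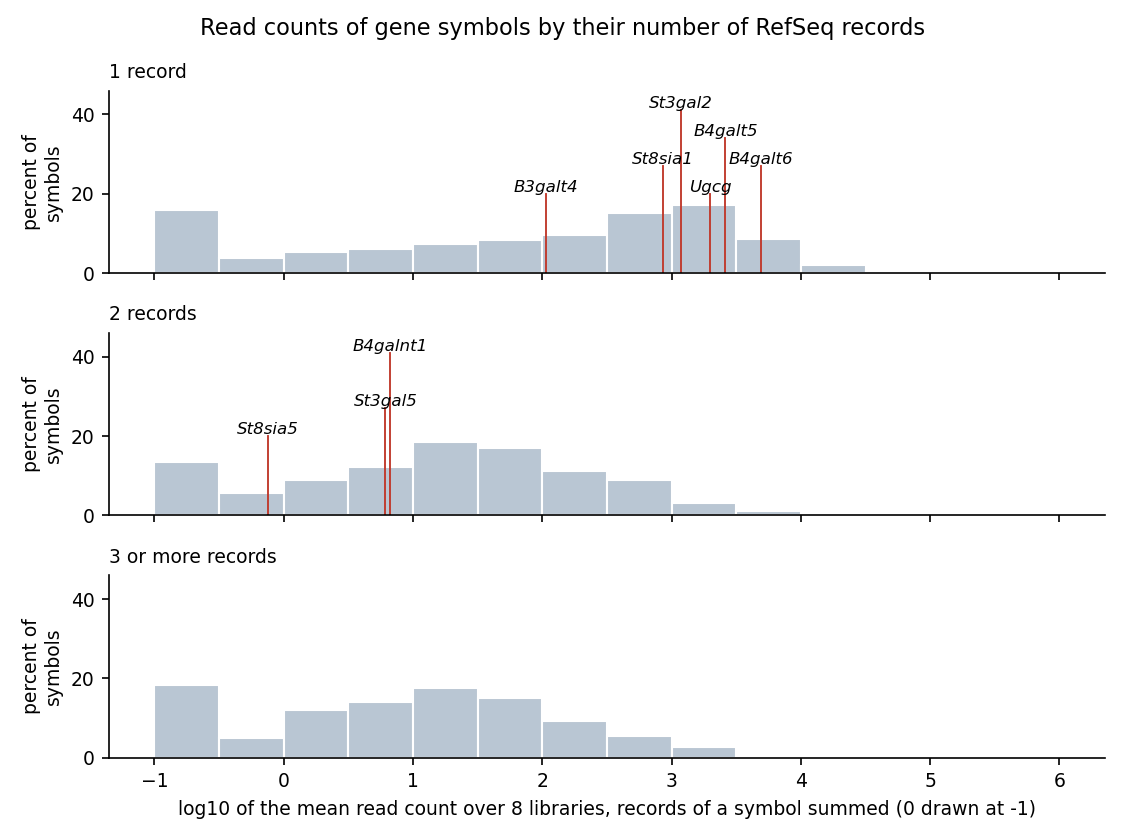
Percent of symbols (vertical axis) by the log10 of their mean read count over the 8 libraries, split by how many RefSeq records a symbol has, with red lines at the members. St3gal5, B4galnt1 and St8sia5 lie among the symbols with 2 records, whose median is 18.1 reads, and the other 6 members among the symbols with 1 record, whose median is 161 reads.

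Dividing by record length allowed levels to be compared between genes. In TKO clones B4galt6 had 720 ± 139 normalized counts per kb, B4galt5 530 ± 32.6, Ugcg 460 ± 21.3, St3gal2 245 ± 82.0, St8sia1 119 ± 16.2 and B3galt4 56.2 ± 10.7 (SD, n = 4). Each was above the next in 4 of 4 TKO clones. In Ctrl clones B4galt6 had 722 ± 88.5 normalized counts per kb, B4galt5 614 ± 143, Ugcg 510 ± 112, St3gal2 248 ± 28.2, B3galt4 61.8 ± 15.5 and St8sia1 23.0 ± 9.23. There B4galt6 was above B4galt5 in 3 of 4 clones, and each other gene was above the next in 4 of 4. St8sia1 was thus the 5th of 6 in every TKO clone and the 6th in every Ctrl clone.

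As a share of the summed counts per kb of these 6 genes, St8sia1 made up 4.75, 4.85, 6.92 and 5.88% in TKO 35, 37, 47 and 48, against 0.609, 0.827, 1.15 and 1.69% in Ctrl 33, 34, 41 and 43. The log2 ratio of B4galt6 to B4galt5 per kb was 0.59, 0.67, 0.05 and 0.38 in TKO clones and 0.03, -0.36, 0.69 and 0.65 in Ctrl clones. The sum of these lactosylceramide synthase genes moved less, at 1384, 1376, 1126 and 1116 normalized counts per kb in TKO clones and 1375, 1396, 1321 and 1254 in Ctrl clones.

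**Figure D4:**
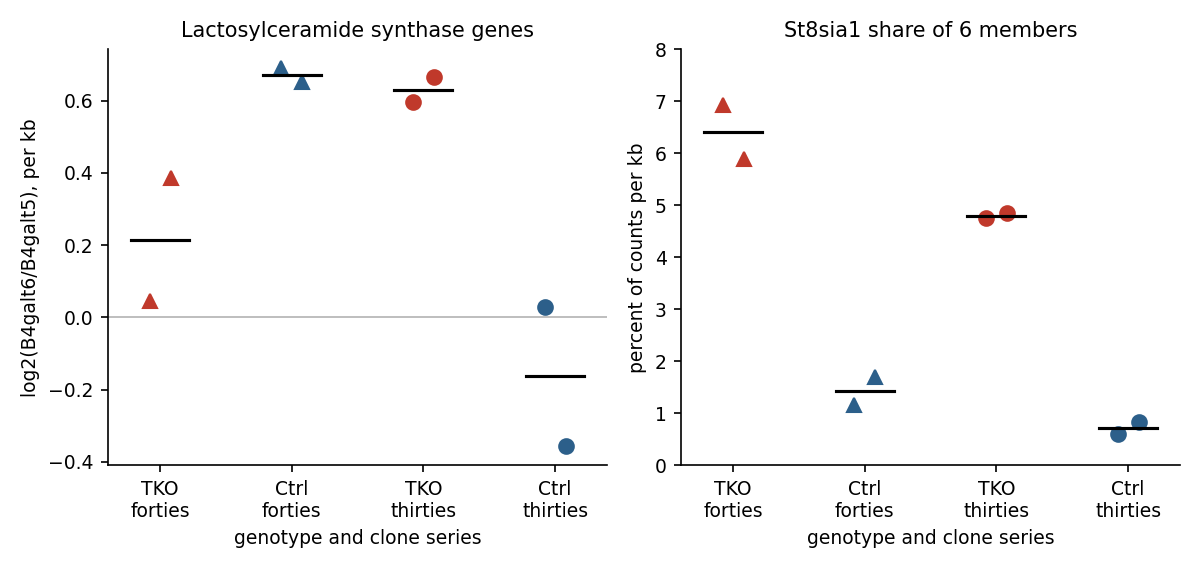
Left, the log2 ratio of B4galt6 to B4galt5 in normalized counts per kb, and right, St8sia1 as a percent of the summed counts per kb of 6 members, by genotype and clone series with 1 point per clone and a bar at the mean of 2 clones. The ratio crosses over, at 0.05 and 0.38 in TKO and 0.69 and 0.65 in Ctrl forties clones but 0.59 and 0.67 in TKO and 0.03 and -0.36 in Ctrl thirties clones, whereas St8sia1 is at 4.75 to 6.92% in TKO clones and 0.609 to 1.69% in Ctrl clones.

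The clone series was compared for the members as well, with genotype in the model. Of the 6 tested members St8sia1 alone was called, with a log2 difference of 0.54 between forties and thirties clones (SE 0.17, edgeR adjusted p = 0.0492), where 19.4% of all tested records were called. Its mean was 726.5 normalized counts in the forties and 547.9 in the thirties clones. The adjusted p ran between 0.0145 and 0.101 over 14 alternatives, and the call was lost when any 1 of the 8 clones was left out, with TMM scaling, and with thinned libraries. The difference between the changes of St8sia1 in the forties and the thirties was -0.50 (edgeR adjusted p = 0.406). Ugcg was lower in every forties clone than in every thirties clone, as 16.1% of all tested records were separated by series in either direction, but it was not called (log2 difference -0.23, edgeR adjusted p = 0.197). The edgeR adjusted p-values of the other 4 members were 0.0837 (B4galt5), 0.101 (St3gal2), 0.415 (B3galt4) and 0.644 (B4galt6).

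The genes around the pathway were described from 6 lists that hold the steps before, beside and after ganglioside synthesis. Of 85 genes listed, 83 were found in the table and 72 passed the filter. In TKO against Ctrl edgeR called 0 of 72 and DESeq2 called 0, and at an unadjusted p of 0.05 edgeR had 9 higher and 0 lower, where 1205 of all 16235 tested records were higher and 1200 lower. No shift of the lists is read from these counts. Their median log2 fold change was 0.11, with all tested records at -0.01. The genotypes did not overlap in 1 of 72 genes, Degs2, a ceramide hydroxylase named here after its values were seen, against 8.33% of all tested records. Degs2 has 2 RefSeq records, and 20 of the 83 genes found have more than 1. Low counts of that class are not read as levels here, and some of these genes are among the 72.

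By role, the medians were -0.04 for 17 tested genes of ceramide supply, 0.19 for 6 genes of nucleotide sugars, 0.21 for 8 genes of sialic acid supply, 0.05 for 12 other sialyltransferases, 0.05 for 13 genes of other glycosphingolipid branches, and 0.30 for 16 genes of ganglioside breakdown. In ceramide supply, Degs1, the desaturase that completes ceramide, had a log2 fold change of -0.27 (edgeR adjusted p = 0.428), and Sptlc2, a subunit of serine palmitoyltransferase, had 0.06 (edgeR adjusted p = 0.845). In ganglioside breakdown, the beta-galactosidase gene Glb1 had 0.32 (edgeR adjusted p = 0.282) and the acid ceramidase gene Asah1 had 0.07 (edgeR adjusted p = 0.848).

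With genotype and series fitted together, 2 of 72 pathway genes were called higher in TKO clones and 0 lower, where 5.7% of all tested records were called in either direction. Slc17a5, the exporter of sialic acid from lysosomes, had 624, 552, 412 and 348 normalized counts in TKO clones and 347, 360, 243 and 273 in Ctrl clones, a log2 fold change of 0.64 in that model (edgeR adjusted p = 0.0226). St6gal1, a sialyltransferase of N-glycans, had 618, 652, 482 and 552 normalized counts in TKO clones and 450, 539, 286 and 332 in Ctrl clones, a log2 fold change of 0.55 (edgeR adjusted p = 0.0428). Within each series both TKO clones were above both Ctrl clones for these genes, and over all clones the genotypes overlapped. Without the series term their edgeR adjusted p-values were 0.242 and 0.303.

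Between the clone series 17 of 72 pathway genes were called, 5 higher and 12 lower in the forties, or 23.6% where 19.4% of all tested records were called. All 5 called genes of ganglioside breakdown were lower in the forties clones. Among them are Neu1, a lysosomal sialidase, Gm2a, the GM2 activator, and Asah1, and apart from Asah1 they are named after their values were seen. Their log2 differences were -0.80 for Neu1, -0.94 for Gm2a and -0.39 for Asah1.

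**Figure D5:**
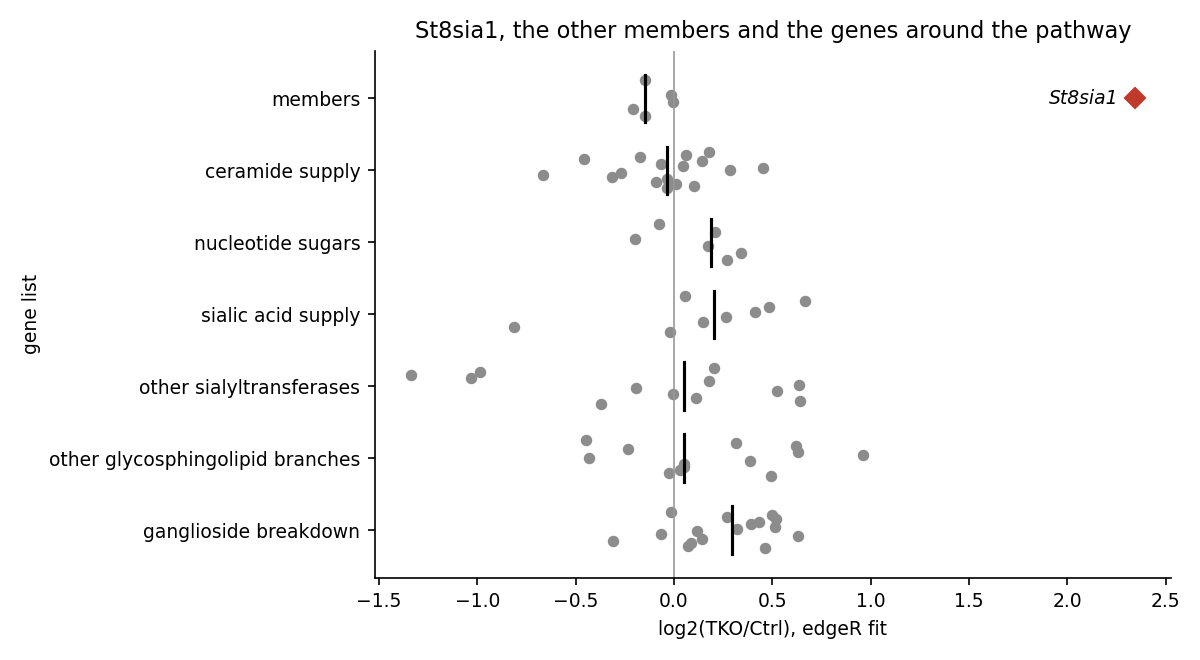
The log2 ratio of TKO to Ctrl (horizontal axis) for the tested members and 6 lists around the pathway, with 1 point per gene and a black bar at the median of each list, St8sia1 left out of the median. St8sia1 is at 2.34, and the 72 pathway genes run between -1.34 and 0.96. St8sia1 was chosen for its difference on this axis, so its place beyond the lists is not a result.

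The nearest tested genes on each side of St8sia1 were read to see whether the difference extended along the chromosome. Genes whose names did not match between the annotations were not placed, so closer genes may be missing. Etnk1 lies 202.8 kb away, Bcat1 2029.4 kb and Lrmp 2151.2 kb, all on 1 side. Ldhb and Golt1b lie on the other side, farther off than Cmas. How far the St8sia1 difference extends along the chromosome cannot be read from genes so spread out. Cmas, which activates sialic acid to CMP-sialic acid, the donor used by every sialyltransferase, lies 45.8 kb away at chr6:142705206-142724234 in mm9. It had 1279, 1259, 1291 and 1508 normalized counts in TKO clones and 1249, 1289, 1539 and 1340 in Ctrl clones, which overlapped, with a log2 fold change of -0.02 (edgeR adjusted p = 0.942). On the same side Ldhb had a log2 fold change of 0.17 and Golt1b -0.31, and on the other side Etnk1 had 0.45, Bcat1 0.06 and Lrmp -0.11, with edgeR adjusted p-values of 0.368 to 0.908. None of these 6 neighbours was called in TKO against Ctrl, and in none of them did the genotypes stay apart over all clones. The change of Ldhb, a lactate dehydrogenase subunit, differed between the series, with a log2 fold change of -0.30 in the forties and 0.86 in the thirties clones (difference -1.16, SE 0.23, edgeR adjusted p = 0.0479). That adjusted p ran between 0.000397 and 0.238 over 14 alternatives, and the call was lost without TKO 35, TKO 37, TKO 48, Ctrl 41 or Ctrl 43. The other 5 neighbours did not pass this test, and Etnk1 had -0.13 in the forties and 0.84 in the thirties clones (edgeR adjusted p = 0.0924). The targeted Piwi genes lie on chromosomes 5, 9 and 14 and none of the neighbours is one of them.

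The records whose log2 normalized counts followed St8sia1 most closely over the 8 clones were Ndufaf5, Depdc1b and Ndufc1 (Pearson r 0.97 each), and the 10 most alike also held Eif2d, Anp32a, Rnaseh2a, Fancc, Eno1b and Glrx. The lowest r of the 10 was 0.95. In all 10 the TKO clones lay above the Ctrl clones, so r rests largely on the genotype step that these 8 points share. Their log2 fold changes were mostly smaller than that of St8sia1, 0.20 to 0.96 in 9 of them and 3.57 in Eno1b, an enolase gene. With the libraries thinned to the smallest total, the r of Ndufaf5 was 0.836. Among the tested members r with St8sia1 was -0.03 for St3gal2, -0.03 for B3galt4, -0.04 for B4galt6, -0.41 for Ugcg and -0.57 for B4galt5.

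Markers of cell types known for GD3 were read beside St8sia1. Of 14 neural progenitor and neuron markers 9 passed the filter. In TKO against Ctrl edgeR called 0 of them and DESeq2 1, which was lower, and 2 were lower at an unadjusted p of 0.05. Over all tested records edgeR called 0.24% and DESeq2 called 513. With genotype and series fitted together edgeR called Nes and Pax6, genes of neural progenitors, lower in TKO clones (log2 fold changes -0.85 and -0.97, adjusted p = 0.0101 and 0.0361). In that fit 5.7% of all tested records were called. Of the 14, 1 marker, Dcx, was at 0 in all libraries. Only 9 of the 14 have 1 RefSeq record, and low counts of the rest are not read as levels here. The summed level of the list was 7739 to 18165 normalized counts in TKO clones and 10041 to 14312 in Ctrl clones, which overlapped. Of 10 oligodendrocyte lineage markers 9 passed the filter and edgeR called 1, Olig1, a lineage transcription factor, with a log2 fold change of 1.47 (edgeR adjusted p = 0.0455). Its relative Olig2 had 1.51 (edgeR adjusted p = 0.0656), and both were called higher with genotype and series fitted together, while DESeq2 called 2 of the list higher. The calls over all tested records in these fits are those given above. The list did not move one way, with a median of 0.25 and a lowest log2 fold change of -0.89, that of Cspg4 (edgeR adjusted p = 0.335). The summed level of the oligodendrocyte list was 2031 to 2475 normalized counts in TKO clones and 1328 to 1804 in Ctrl clones, without overlap. This sum includes Olig1 and Olig2 and is not read as a shift of the list. Its part in the St8sia1 difference was not tested. In the pluripotency list Pou5f1 was called lower, at 17075 normalized counts on average in TKO clones and 26087 in Ctrl clones (log2 fold change -0.61, edgeR adjusted p = 0.0380).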

How the data were processed

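The authors prepared TruSeq RNA libraries from 8 clones, sequenced single ends and aligned them by BWA (0.7.5a in the submitters' processing notes) to mm9 GenBank transcripts. The deposited table holds raw whole-number read counts per RefSeq record, and the rule for counting, strand and reads matching several records is not given in the sources used here. Symbols were found for 26317 of 27052 records, and 4903 records were at 0 in all libraries.

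The 16235 records that reached 5 reads in 4 or more libraries were tested with edgeR 4.0.16 in R 4.3.3 (quasi-likelihood test, median-ratio size factors, Benjamini-Hochberg over all tested records, calls at 0.05). The models held genotype alone, genotype with the clone series (numbers in the thirties or forties), or their interaction. TKO and Ctrl clones came from different embryos, but the labels do not say which clones of a genotype share an embryo. Clones of the same genotype and series may thus be sister clones. The p-values, also those of the interaction, measure the spread between clones only. DESeq2 1.42.0, TMM scaling, other filters, counts summed per symbol, thinning, a 2.5-fold threshold and leaving out each clone were alternatives. The test was run on simulated data first.

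The text names all members, up to 4 called genes of each pathway list or else its 2 most abundant, the 3 nearest tested genes on each side of St8sia1, and the 10 records most correlated with it among those averaging 50 or more normalized counts (log2 with a pseudocount of 1). Some genes that these rules name are not reported here. Members and lists were chosen with earlier results of these data known. Gene coordinates are from the GENCODE annotation of mm9, and upstream sequences from RefSeq (GRCm38.p6).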

Additional observations from a re-analysis of the deposited data

Results flagged for a closer look

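Among 49 groups of 4 clones examined, covering 25 genes, 3 had 1 clone far from the other 3. Chance alone gives this in about 1 in 20 groups. Ugcg stood at 2513 normalized counts in Ctrl 34, above the other Ctrl clones. Cmas stood at 1508 in TKO 48, above the other TKO clones, and Lrmp at 299.9 in TKO 35, above the other TKO clones. The TKO change of B4galt6 differed between the clone series by -0.75 on the log2 scale (forties minus thirties), and that of Ldhb, a neighbour of St8sia1, by -1.16, each by a test of the difference itself.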

How the results depend on the processing

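The log2 fold change of St8sia1 kept its direction in 15 alternatives (2.17 to 2.62, the range when 1 clone was left out). These fits use the libraries from which St8sia1 was chosen and are no test of its difference. The number of other members called in TKO against Ctrl was 0 in all 16 alternatives, and that of pathway genes 0 in 15 and 2 with the clone series as a term. No paired analysis was possible because TKO and Ctrl clones share no number. For forties against thirties the 1 member called became 0 with TMM scaling and with thinned libraries, and 0 to 1 when 1 clone was left out. That member was St8sia1, whose call was lost in each of these fits, and the 1 was B4galt5 without TKO 47 (adjusted p = 0.0487) and St3gal2 without Ctrl 33 (adjusted p = 0.0291). For the difference in change between the series the 1 member called became 0 with thinned libraries and 0 to 3 when 1 clone was left out, with 3 without Ctrl 33. The causes were not tested. The alternatives for the difference in the change of Ldhb were chosen after seeing the data. The number of all records called in TKO against Ctrl (39) was 513 with DESeq2, 926 with the series as a term, and 15 (without TKO 35 or Ctrl 41) to 86 (without TKO 48) when 1 clone was left out.

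Near-zero log2 fold changes turned round. That of B4galt6 was 0.0068 with TMM scaling and 0.00083 with thinned libraries, and that of B4galt1 -0.0061 with thinned libraries. When 1 clone was left out the ranges were -0.25 to 0.11 for St3gal2, -0.088 to 0.093 for B4galt6, -0.22 to 0.017 for Ugcg, -0.028 to 0.17 for Sptlc2, -0.038 to 0.11 for B4galt1, -0.020 to 0.19 for Asah1, -0.088 to 0.045 for Cmas, -0.11 to 0.16 for Bcat1 and -0.29 to 0.075 for Lrmp, and the forties against thirties difference of B4galt6 ran between -0.22 and 0.0084. Exact tests of 4 against 4 clones give no p below 0.0286, and St3gal5, B4galnt1 and St8sia5 had too few reads for a fold change.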
